A study of Mus musculus with 44 samples.

Results

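The Wnt pathway was followed through 42 genes of mouse embryonic stem (ES) cells. They were chosen by symbol, with earlier results of these data known. The set held the Wnt ligands, the Frizzled receptors with Lrp5 and Lrp6 as co-receptors, and the secreted antagonists of the Sfrp and Dkk families with Frzb. It also held the cytoplasmic components Dvl, Axin, Apc, Ctnnb1, Csnk1d and Csnk1e, and the nuclear factors Lef1, Tcf7l1 and Tcf7l2. The 42 genes were read by 55 probe sets of an Affymetrix array, out of 10833 probe sets with 1 gene symbol that cover 8251 genes. The 55 comprise 16 probe sets for 14 ligands, 14 for 10 receptors, 6 for 6 secreted antagonists, 13 for 9 cytoplasmic components and 6 for 3 nuclear factors. Of the 42 genes, 9 had several probe sets (22 in all), and every probe set was kept as a result of its own. Gsk3b, Tcf7, Dkk4 and Porcn were also sought, but no probe set carried one of these as its single symbol, and they are not analysed here.

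In canonical Wnt signalling a secreted Wnt protein binds a Frizzled receptor together with Lrp5 or Lrp6, Dvl proteins are engaged at the membrane, and the complex of Axin, Apc, Gsk3b and casein kinase that marks β-catenin (Ctnnb1) for destruction is held back. β-Catenin then accumulates and works in the nucleus with DNA-binding factors of the TCF/LEF family, among them Lef1, Tcf7l1 and Tcf7l2. In mouse ES cells this pathway helps to maintain self-renewal, and Tcf7l1 acts there mainly as a repressor of pluripotency genes.

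The cells were of the mouse ES cell line CGR8 (the clone cgr8.8 per the labels). Hex, encoded by Hhex, is a homeodomain transcription factor. Wild-type cells gave 4 arrays. Cells with Hex targeted to the Rosa26 locus gave 4 arrays in the unrecombined and 4 in the recombined state. HexERTVP2, targeted to the same locus, is by its name a fusion of Hex with an oestrogen receptor domain that answers to 4-hydroxytamoxifen (4-OHT) and with a VP activation domain. Clone 1 of these cells gave 5 unrecombined arrays without 4-OHT, 3 unrecombined with it, 4 recombined without it and 4 recombined with it, and clone 2 gave 3 arrays in each of those 4 states. Recombination commonly removes a block to expression of the insert, which the labels do not state, and each HexERTVP2 group is 1 clone. No label tells whether the arrays within a group are separate cultures, so the tests reflect array-to-array spread, which may be technical. A further 4 arrays, with titles that contradict themselves, entered no comparison.

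Values are log2 intensities, and adjusted p-values come from limma fitted to all 40 arrays over 12422 probe sets, with 0.05 as the threshold. One array, array 2 of unrecombined Hex, was unlike the rest: it correlated with the other arrays at 0.869 on average, where the others had 0.978 to 0.990, and the SD over its probe sets was 1.60 (1.79 to 1.98 elsewhere). Results that rest on it are therefore given with and without it. The log2 ratio of the 3′ to the 5′ β-actin probe set, a sign of RNA quality, ranged from 0.56 to 2.34 over the other arrays, and was 2.24 on array 2. Hhex itself (98408_at) was at 6.14 ± 0.06 in wild type, 5.89 ± 0.64 with unrecombined and 6.25 ± 0.15 with recombined Hex (mean ± SD, 4 arrays each). The unrecombined Hex arrays ran from 4.94 to 6.32, so their mean was pulled down by a low array. Whether the insert contains the sequence that 98408_at detects is not given in the sources used here, so this probe set does not check the labels. The ES cell genes Pou5f1 (103075_at), Nanog (161072_at) and Zfp42 had lowest values of 10.62, 10.43 and 10.17 on the arrays other than array 2, where they read 9.78, 9.90 and 9.21. The array medians lay between 6.73 and 6.81.

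Lef1 was the gene of the set that differed most clearly among the 11 groups, and 2 of the 55 probe sets, both of Lef1, passed the test over the groups (5.17% of all 12422 probe sets passed), with adjusted p-values of 9.89e-04 and 0.00118. The second missed the threshold with quantile normalization (0.119). By an unadjusted p under 0.05 the counts were 13 of 55 (23.6%), and 14.1% of all. Without array 2, 5 of 55 passed, where 12.9% of all probe sets did: both of Lef1 and those of Wnt8a, Sfrp1 and Sfrp2. The spread of the group means, from the lowest to the highest group, had a median of 0.32 over the 55 and of 0.34 over all probe sets. It exceeded 0.5 in 7 of the 55 (12.7%) and in 23.3% of all. Fzd2 had a range of 0.86, a probe set of Csnk1d 0.84, one of Dvl2 0.61, the Lef1 probe sets 0.57 and 0.54, Sfrp2 0.55 and Csnk1e 0.54. The mean over the arrays lay below the array median for 15 of 16 ligand, 7 of 14 receptor, 5 of 6 antagonist, 4 of 13 cytoplasmic and 0 of 6 nuclear probe sets, so most ligand values here are not shown to exceed background.

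**Figure D1:**
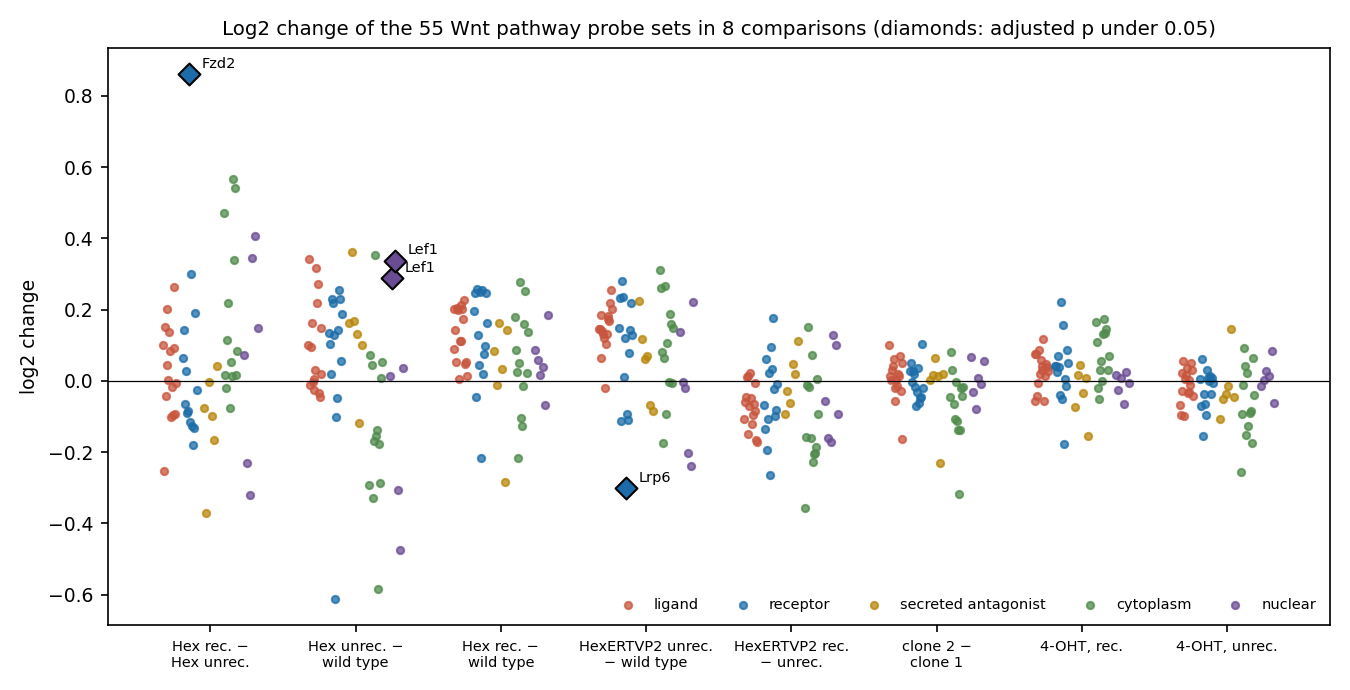
Log2 change (vertical axis) of the 55 Wnt pathway probe sets in 8 comparisons, each point 1 probe set, with the colour giving its role. Diamonds mark an adjusted p under 0.05 with all 40 arrays: Fzd2 at 0.86, Lef1 at 0.34 and 0.29, and Lrp6 at −0.30, while both 4-OHT columns hold no diamond.

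Lef1 is a DNA-binding partner of β-catenin and also a known transcriptional target of the pathway. Its 2 probe sets, 103629_g_at and 103628_at, were made from the same transcript record and are not independent measurements. The 250 bases before the Lef1 start are shown because the Lef1 transcript gave most of the calls. They are set beside those of Axin2, a classic target that passed no test. They come from RefSeq (GRCm38.p6), plus strand, at chr3:131110047-131110296 for Lef1, where the first of 4 listed starts was used, and chr11:108920099-108920348 for Axin2. Capitals mark the letters CTTTG, the core of the TCF/LEF site, searched on both strands (CTTTG or CAAAG).
Lef1: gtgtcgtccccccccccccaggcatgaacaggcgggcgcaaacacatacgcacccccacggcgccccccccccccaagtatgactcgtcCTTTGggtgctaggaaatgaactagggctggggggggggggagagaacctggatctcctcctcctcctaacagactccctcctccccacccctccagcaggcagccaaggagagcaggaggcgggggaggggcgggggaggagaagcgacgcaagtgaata
Axin2: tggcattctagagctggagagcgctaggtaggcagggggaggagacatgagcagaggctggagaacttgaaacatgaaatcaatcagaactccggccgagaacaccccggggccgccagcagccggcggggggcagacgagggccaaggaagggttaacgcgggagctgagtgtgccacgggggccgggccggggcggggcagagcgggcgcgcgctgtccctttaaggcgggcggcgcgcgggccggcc
The Lef1 window held 1 match, starting 161 bases before the start, and the Axin2 window held 0. Such a match occurs in 48.6% of 32851 promoters of the same length. The homeodomain core TAAT (or ATTA) had 0 matches in both windows and occurs in 54.9% of all. A match of so few letters is a description and not a site.

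Lef1 was highest in unrecombined Hex cells. On 103629_g_at the wild-type arrays read 7.85, 7.91, 7.91 and 7.81, the unrecombined Hex arrays 8.21, 8.14, 8.24 and 8.23, and the recombined Hex arrays 8.02, 7.99, 7.93 and 7.60. Every unrecombined Hex array was above every array of the other 2 groups. Unrecombined Hex cells were higher than wild type by 0.34 (SE 0.09, 1.26-fold, adjusted p = 0.0306, and 0.36 with adjusted p = 0.0340 without array 2). Recombined Hex cells were lower than unrecombined ones by 0.32 (SE 0.09, adjusted p = 0.0530), just outside the threshold, and passed without array 2 (−0.34, adjusted p = 0.0326). On 103628_at the same groups read 9.12, 9.05, 9.13 and 9.07, then 9.35, 9.70, 9.36 and 9.11, then 9.07, 9.27, 9.12 and 9.14. Here the groups overlapped, and array 2 was the highest. The rise over wild type was 0.29 (SE 0.08, adjusted p = 0.0394), and it was lost without array 2 (0.18, adjusted p = 0.250). The difference between recombined and unrecombined Hex was −0.23 (adjusted p = 0.141) and −0.12 without array 2 (adjusted p = 0.381). Both Lef1 comparisons use the same 4 unrecombined arrays, so they are not separate results. Leaving out any single wild-type array also ended the rise over wild type, with adjusted p-values of 0.0574 to 0.0956 on 103629_g_at and 0.0669 to 0.111 on 103628_at, as did leaving out unrecombined Hex array 4 on the first (0.0501).

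Some ES cell markers moved in the same comparisons. Against wild type, 4 of 13 ES cell probe sets were lower in unrecombined Hex cells (4.07% of all probe sets were, and 2.46% with 2 of the 13 without array 2): Dppa3 (−2.17, and −1.84 without array 2), Nanog (−0.97 and −0.75), Klf4 (−0.82) and Zfp42 (−0.75), of which the last pair were lost without array 2. The mean of the list reached at most 8.76 in unrecombined Hex and was at least 8.88 in wild type. The median change of the list was −0.09, and −0.03 without array 2. With recombination Dppa3 (1.78) and Nanog (0.65) rose. The Nanog calls were all on 161072_at, and the other Nanog probe set, 161653_f_at, gave none in these comparisons. Fgf4 went the other way without array 2: 0.50 against wild type (adjusted p = 0.0019) and −0.39 with recombination (0.0130). The list was chosen with earlier results of these data known, so its count beside the share of all is a description. The part of these markers in the Lef1 and Fzd2 results was not tested.

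Recombined Hex cells did not differ detectably in Lef1 from wild type: the differences were 0.02 (95% interval −0.18 to 0.21) on 103629_g_at and 0.06 (−0.11 to 0.23) on 103628_at. The intervals leave room for differences as large as some of those above.

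The lowest Lef1 group means were those of recombined HexERTVP2 clone 1. On 103628_at unrecombined clone 1 read 9.07, 9.19, 9.07, 9.04 and 9.24 without 4-OHT and 9.16, 9.34 and 9.10 with it, while recombined clone 1 read 8.89, 8.89, 8.69 and 8.89 without and 8.85, 8.88, 8.91 and 8.98 with it. The recombined arrays lay below the unrecombined ones in both states. On 103629_g_at unrecombined clone 1 read 8.04, 8.02, 7.78, 7.76 and 8.03 without 4-OHT and 7.92, 7.98 and 8.23 with it, against 7.80, 7.63, 7.60 and 7.52 and 7.72, 7.74, 7.60 and 7.48 in recombined cells. The groups with 4-OHT did not overlap, and those without it overlapped through 1 recombined array. The mean over both 4-OHT states, a comparison chosen after the data were seen, fell by 0.35 (SE 0.07, 1.27-fold lower, adjusted p = 0.00259) on 103629_g_at and by 0.29 (SE 0.06, 1.22-fold lower, adjusted p = 0.0064) on 103628_at. These were the 2 of 55 probe sets called in it (1.03% of all). The call on 103628_at was lost without array 2 of unrecombined clone 1 with 4-OHT (adjusted p = 0.0516) and with quantile normalization (0.458). Without array 2 of the Hex group, which enters through the common spread, 3 of 55 passed (2.41% of all). Taken singly, the state without 4-OHT gave −0.29 and −0.28 and the state with it −0.41 and −0.29, and neither passed with all arrays (adjusted p from 0.0963 to 0.427). In those single states 0 of 55 passed with all arrays (0.547% of all without and 0.209% with 4-OHT; 4 and 3 at an unadjusted p under 0.05, where 5.79% and 2.79% of all were). Without array 2 of the Hex group 1 passed in each (1.32% and 0.588%), a Lef1 probe set both times: 103628_at without 4-OHT (adjusted p = 0.0156) and 103629_g_at with it (0.0453).

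In clone 2 no change of Lef1 with recombination was detected. Unrecombined clone 2 read 7.88, 7.50 and 7.92 without 4-OHT and 7.76, 7.78 and 7.58 with it on 103629_g_at, and recombined clone 2 read 7.73, 7.66 and 7.76 and 7.78, 7.74 and 7.69. The groups overlapped throughout, and the differences were −0.01 (95% interval −0.17 to 0.15) there and −0.06 (−0.20 to 0.08) on 103628_at. Over both states 0 of 55 passed in clone 2 (0.733% of all; 1 at an unadjusted p under 0.05, where 7.56% of all were), and 0 without array 2 (3.14%). The test of the difference between the clones passed for 0 of 55 (0.821% of all; 3 at an unadjusted p under 0.05, where 6.1% of all were), and for 0 without array 2 (2.43%). For Lef1 it gave no call (0.34, SE 0.10, adjusted p = 0.163, and 0.0710 without array 2, on 103629_g_at, and 0.23, adjusted p = 0.509 and 0.116, on 103628_at). Of the fits made, the one without array 2 that also held the log2 β-actin ratio gave calls (adjusted p = 0.0429 and 0.0450). No response of Lef1 to 4-OHT was detected in recombined cells, where the mean over the clones was 0.01 (95% interval −0.14 to 0.15) and −0.02 (−0.16 to 0.11). Neither Lef1 probe set had a slope on the β-actin ratio that passed (−0.01 and −0.08 per unit of the log2 ratio, adjusted p = 0.920 and 0.0991).

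**Figure D2:**
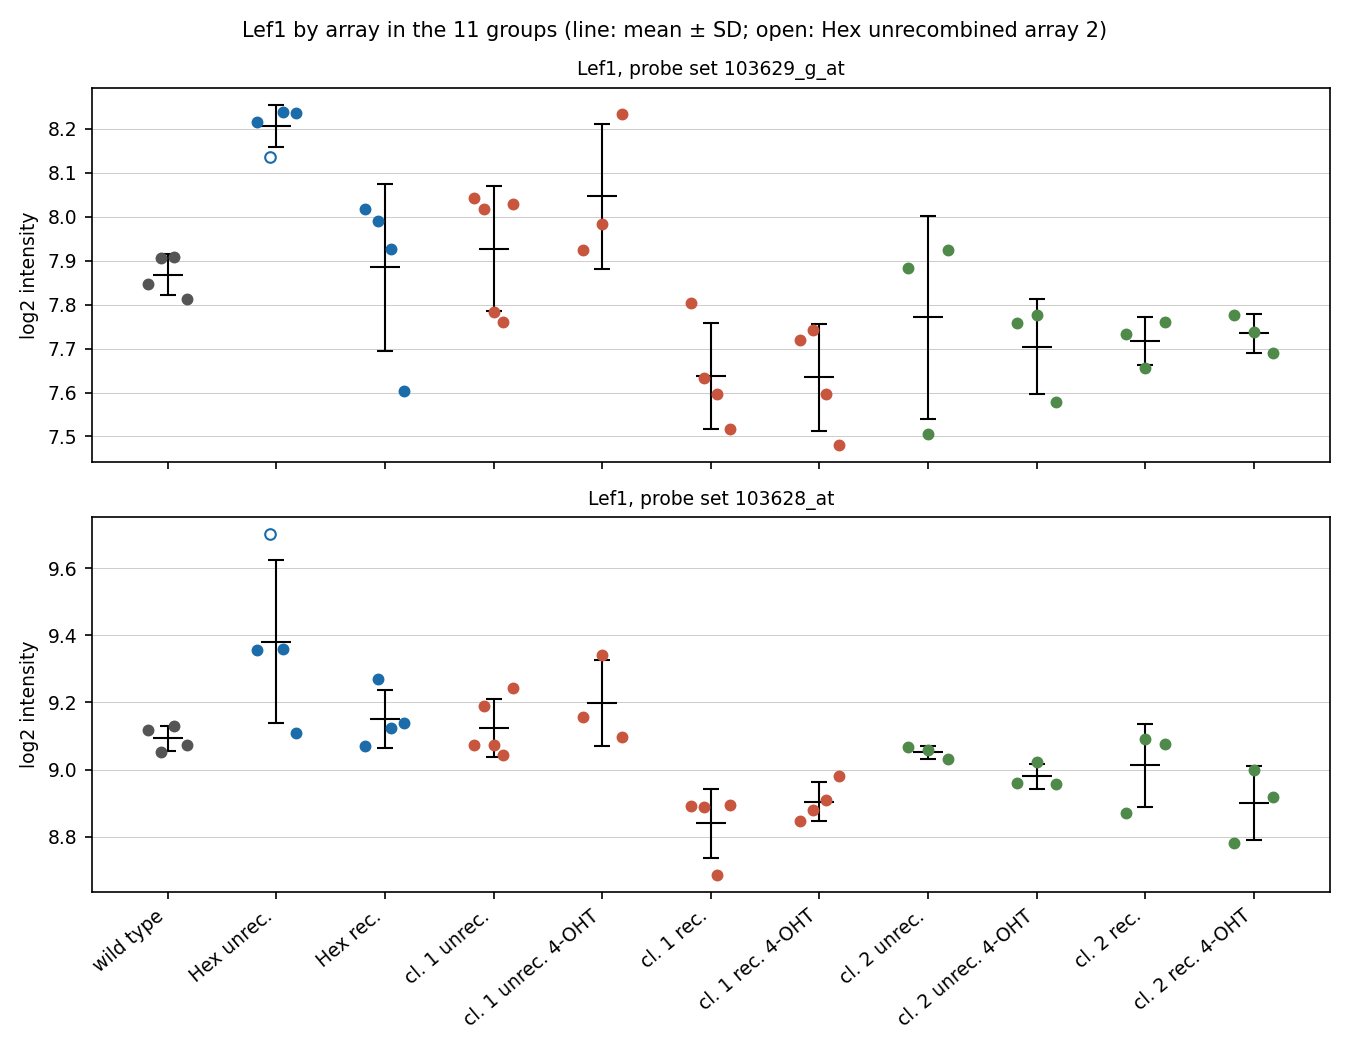
Log2 intensity of Lef1 (vertical axis) on every array of the 11 groups (horizontal axis), with 1 panel per probe set. Points are arrays, black lines are group means ± SD, and the open point is array 2 of the unrecombined Hex group. Unrecombined Hex cells have the highest mean in both panels (8.21 and 9.38), and recombined clone 1 lies lowest (7.63 with 4-OHT and 8.84 without).

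Among the receptors, Fzd2 rose with recombination of Hex. Fzd2 is a Frizzled receptor that carries both β-catenin-dependent and other Wnt signals. The unrecombined Hex arrays read 7.29, 6.46, 7.34 and 7.16, the recombined ones 7.83, 8.33, 7.51 and 8.03, and the wild-type ones 7.44, 7.74, 8.0 and 7.53. No unrecombined array reached the lowest array of either other group, and the 6.46 is array 2. The rise from unrecombined to recombined was 0.86 (SE 0.20, 1.82-fold, adjusted p = 0.0114), and 0.66 without array 2 (adjusted p = 0.0392). It was the 1 of 55 probe sets called in this comparison (3.37% of all), or 1 of 2 without array 2 (6.26%), the other being Lef1. Leaving out recombined array 2 ended the call (0.73, adjusted p = 0.0728), as did a fit of only the 2 groups' own arrays (0.620). Recombined Hex and wild type did not differ detectably in Fzd2 (0.25, 95% interval −0.16 to 0.66), and unrecombined Hex was below wild type by 0.61 at an adjusted p of 0.0793 (0.426 without array 2). Fzd2 also followed RNA quality, with a slope of −0.57 per unit of the β-actin log2 ratio. That ratio averaged 1.48 in unrecombined Hex, 1.14 in recombined Hex and 1.20 in wild-type cells. With the ratio in the model the rise was 0.66 and passed.

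In the HexERTVP2 cells Fzd2 group means lay between 7.45 and 7.87, and no difference passed. Recombination without 4-OHT gave −0.26 (SE 0.15, adjusted p = 0.557) and 4-OHT in recombined cells 0.22 (SE 0.16, adjusted p = 1).

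The other receptors differed little between recombined and unrecombined Hex: 6 of the 14 receptor changes, Fzd2 included, were above 0 and 8 below, and after Fzd2 the largest was 0.30 on a probe set of Fzd4 (adjusted p = 0.256). Over all 55 probe sets the median change was 0.02 (0.01 over all probe sets), and 13 (23.6%) had an unadjusted p under 0.05, where 15.9% of all did. The arrays of the groups did not overlap for 2 of 55 (5.78% of all probe sets). Against wild type, 0 of 55 passed in recombined Hex (0.266% of all, or 1.37% without array 2, when again 0 passed), with 8 (14.5%, and 8.24% of all) at an unadjusted p under 0.05 and a median of 0.09 (0.05 over all). All 16 ligand changes in that comparison were above 0, from 0.01 to 0.23, without a call. So were 62.6% of all probe sets and 76.9% of the 6176 with a mean below the array median, as 15 of the 16 ligand probe sets have. Unrecombined Hex against wild type had the 2 Lef1 calls (4.82% of all), and 1 without array 2 (3.63%).

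Lrp6, the co-receptor that is phosphorylated when Wnt binds, was lower in unrecombined HexERTVP2 cells than in wild type on 1 of its 2 probe sets. On 93877_at the wild-type arrays read 8.42, 8.31, 8.16 and 8.43, unrecombined clone 1 without 4-OHT read 8.15, 8.09, 8.12, 8.09 and 7.93, and clone 2 read 7.99, 8.06 and 7.90. Every array of both clones was below every wild-type array. Lrp6 fell by 0.30 against wild type, with the clones averaged (SE 0.07, 1.23-fold lower, adjusted p = 0.0209, and 0.00149 without array 2 of the Hex group). It was the 1 of 55 called (1.46% of all). The call was lost without wild-type array 1, 2 or 4 or clone 2 array 3 (adjusted p = 0.122, 0.0603, 0.147 and 0.0669), and with quantile normalization (0.325). The other probe set, 103271_at, differed by −0.11 (SE 0.07, adjusted p = 0.435). The 93877_at values of recombined Hex cells, 8.12, 8.08, 8.11 and 8.14, were also below wild type, by 0.22 at an adjusted p of 0.485 (0.103 without array 2). The unrecombined Hex arrays other than array 2 read 8.09 to 8.15, again below every wild-type array, while array 2 read 8.51. Low values on this probe set were thus not confined to HexERTVP2 cells.

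**Figure D3:**
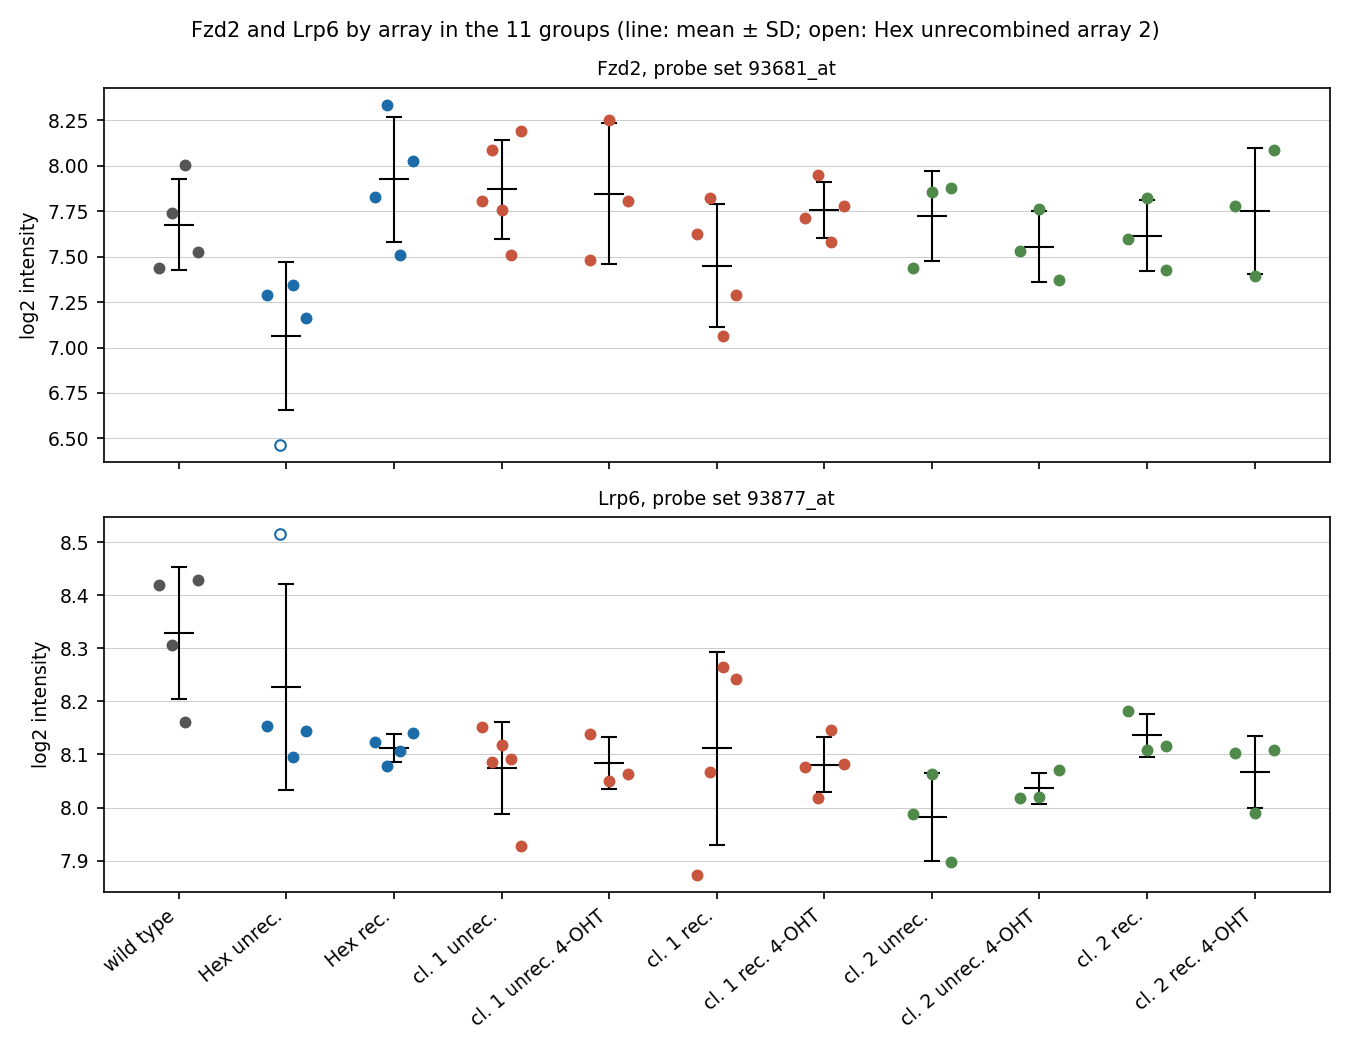
Log2 intensity (vertical axis) of Fzd2 and of Lrp6 probe set 93877_at on every array of the 11 groups (horizontal axis). Points are arrays, black lines are group means ± SD, and the open point is array 2 of the unrecombined Hex group. Fzd2 is lowest in unrecombined Hex cells (mean 7.06), and Lrp6 is highest in wild type (mean 8.33).

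More of the set differed between unrecombined HexERTVP2 cells and wild type when array 2 of the Hex group, which is no part of the comparison, was left out of the spread: 7 of 55 passed (8.13% of all). Lrp6 and the repressor Tcf7l1 on 160780_at (−0.24, adjusted p = 0.0373) were lower. Lrp5, the partner co-receptor of Lrp6 (0.28, adjusted p = 0.0397), the ligand Wnt8a (0.26, 0.0434), the receptors Fzd1 (0.23, 0.0294) and Fzd8 (0.22, 0.0374) and the nuclear factor Tcf7l2 on 97660_s_at (0.22, 0.0458) were higher. Their changes were the same with all arrays, where none of these 6 passed (adjusted p from 0.104 to 0.414). Over the 55 the median change was 0.13, against 0.04 over all probe sets, and 15 of 16 ligand changes were above 0, as were 59.8% of all and 72.2% of those below the array median.

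Taken by clone, which was done after the data were seen, more probe sets passed in clone 2 than in clone 1. Whether unrecombined clones 1 and 2 differ from each other was not tested. In clone 2 6 of 55 passed with all arrays (6.79% of all) and 19 without array 2 of the Hex group (25.4%), while in clone 1 the counts were 0 (0.298%) and 1 (1.14%). An unadjusted p under 0.05 was reached by 17 in clone 2 (25.6% of all) and by 3 in clone 1 (4.26%). Lrp5 led in clone 2: the wild-type arrays read 6.86, 6.89, 6.94 and 6.83 and the clone 2 arrays 7.12, 7.19 and 7.73. The groups did not overlap, and the third clone 2 array was far above the rest. The difference was 0.47 (SE 0.11, adjusted p = 0.0094), and 0.28 (adjusted p = 0.172) without that array. Fzd1 read 5.17, 5.11, 5.16 and 5.12 in wild type and 5.53, 5.36 and 5.66 in clone 2, again without overlap (0.37, adjusted p = 0.0137). Tcf7l2 on 97660_s_at read 7.96, 8.03, 7.98 and 7.84 against 8.34, 8.16 and 8.44 (0.36, adjusted p = 0.0134). Tcf7l2 is a TCF factor that can activate or repress, and its groups too were apart. Fzd8 read 6.97, 6.90, 6.95 and 6.87 against 7.06, 7.24 and 7.38 (0.30, adjusted p = 0.0263). Wnt6 read 5.45, 5.50, 5.41 and 5.45 against 5.75, 5.62 and 5.86 (0.29, adjusted p = 0.0457). Lrp6, with the array values above, was lower by 0.35 (adjusted p = 0.0159). With 4-OHT the unrecombined clone 2 arrays read 6.93, 6.85 and 6.90 for Lrp5 and 5.52, 5.41 and 5.34 for Wnt6, within or close to the wild-type values, while Fzd8 read 7.25, 7.21 and 7.10, above them. Without the third clone 2 array 0 of 55 passed, and 2 passed without wild-type array 4. Arrays of the groups did not overlap for 19 of 55, 16 higher and 3 lower in clone 2, where 29.4% of all probe sets did not overlap.

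Means of some marker lists of cell types also differed between unrecombined HexERTVP2 cells and wild type. The mean of 13 ES cell probe sets was 8.88 to 8.96 on the wild-type arrays, 8.68 to 8.82 in clone 1 and 8.56 to 8.69 in clone 2 without 4-OHT, and that of 14 fibroblast probe sets 5.90 to 5.94, 6.02 to 6.12 and 6.02 to 6.13. Neither clone overlapped wild type in these lists. The mean of 19 probe sets of primitive and visceral endoderm genes was 6.47 to 6.57 in wild type, 6.54 to 6.64 in clone 1 and 6.82 to 6.91 in clone 2. Clone 2, but not clone 1, lay above all wild-type arrays there, and also for 11 trophoblast probe sets (5.81 to 5.90 against 5.76 to 5.81) and 8 of primitive streak and mesoderm (5.39 to 5.56 against 5.19 to 5.38). For 7 neuroectoderm probe sets clone 2 overlapped wild type, and clone 1 (5.82 to 5.86) lay below it (5.87 to 5.93). Of all single probe sets, 29.4% did not overlap wild type in clone 2 and 4.38% in clone 1. With the clones averaged, 72.2% of probe sets below the array median rose. In wild type the means of all these lists except the ES cell one lie below that median. In this averaged comparison 2 of 13 ES cell probe sets passed as lower and 1 of 14 fibroblast and 3 of 19 endoderm ones as higher. Of all probe sets, 1.14% passed as lower and 0.322% as higher. For trophoblast 1 of 11 passed, as lower, and for mesoderm 0 of 8. The β-actin log2 ratio averaged 0.87 ± 0.53 (n = 3) in clone 2 and 1.20 ± 0.31 (n = 4) in wild type. The part of these in the Wnt pathway differences was not tested. In bulk RNA, fewer cells of a type and less RNA per cell cannot be told apart.

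The nuclear repressor Tcf7l1 and the ligand Wnt8a gave no call with all arrays. Wnt8a was highest in unrecombined clone 1, at 5.93, 6.11, 5.91, 5.91 and 6.26 without 4-OHT and 6.36, 6.17 and 6.0 with it, against 5.69, 5.66, 5.73 and 5.73 in wild type. Recombined clone 1 read 5.84, 5.64, 5.91 and 5.97 and 5.87, 5.79, 5.78 and 5.95. The groups with 4-OHT did not overlap and those without it did. The difference of the means over both 4-OHT states was −0.26 (SE 0.07, adjusted p = 0.0988, and 0.0240 without array 2 of the Hex group). Wnt8a lies below the array medians in every group.

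Response to 4-OHT was not detected in any of the 55 probe sets. In recombined HexERTVP2 cells 0 passed (0.0322% of all), 1 had an unadjusted p under 0.05 (1.54% of all) and the median change was 0.03 (−0.00 over all). The range was −0.18 to 0.22, and the 1 probe set was that of Sfrp1, a secreted antagonist that binds Wnt proteins (−0.16, 95% interval −0.28 to −0.04, adjusted p = 1). In unrecombined cells 0 passed (0% of all), 0 had an unadjusted p under 0.05 (1.36% of all) and the range was −0.26 to 0.15. The difference between these responses was called for 0 of 55 (0.0161% of all; 1 at an unadjusted p under 0.05, where 2.59% of all were), and that between the clones for 0 (0%; 1, where 0.741% of all were). Without array 2 of the Hex group 0 of 55 passed in each of these 4 comparisons (0.145%, 0%, 0.0644% and 0% of all, in the same order).

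Recombination of HexERTVP2 without 4-OHT, averaged over the clones, was called for 0 of 55 (0.467% of all; 6 at an unadjusted p under 0.05, where 10.7% of all were), and for 0 without array 2 (3.38%). The median change was −0.07, against −0.01 over all probe sets, and 3 of 16 ligand changes were above 0, where 46.6% of all and 44.6% of those below the array median were. The lowest was −0.17. Dvl2, which links the receptors to the destruction complex, had the largest change (−0.36 on 100495_at, adjusted p = 0.409). Clones 2 and 1, averaged over the 4 states, differed at 0 of 55 (1.22% of all; 5 at an unadjusted p under 0.05, where 7.32% of all were), and at 0 without array 2 (3.25%). The effect of recombination differed between the clones at 0 (0.29% of all; 3 at an unadjusted p under 0.05, where 7.33% of all were), and at 0 without array 2 (1.35%). In clone 2 alone 0 passed (0.322% of all; 4 at an unadjusted p under 0.05, where 11.2% of all were), while without array 2 of the Hex group 2 passed (4.17%): Lrp5 fell by 0.41 (adjusted p = 0.0323) and the ligand Wnt6 by 0.32 (0.0362). Neither call held when the third unrecombined clone 2 array was left out too (Lrp5 −0.22, adjusted p = 0.356, and Wnt6 −0.26, 0.223). Both were also lost without recombined clone 2 array 2 (0.188 and 0.179) or 3 (0.107 and 0.160), and that of Wnt6 without unrecombined array 1 (0.0569).

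The 6 probe sets of Sfrp, Frzb and Dkk antagonists in the set passed in none of the comparisons with all arrays. Sfrp2 read 8.36, 8.16, 7.88 and 8.17 in wild type, 8.40, 7.19, 8.21 and 8.31 in unrecombined Hex and 8.11, 7.72, 7.78 and 7.81 in recombined Hex, with array 2 the 7.19. Without that array the recombined cells were lower by 0.45 at an adjusted p of 0.0553, and the test over the 11 groups passed (range 0.55, adjusted p = 0.0379). Sfrp1 passed it as well (range 0.32, adjusted p = 0.00990), with group means from 5.51 to 5.82. Sfrp2 had a slope of 0.34 per unit of the β-actin ratio, and Sfrp1 one of −0.00.

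Those core components of the destruction complex that are in the set, and β-catenin, its target, gave no call in the comparisons with all arrays. Axin2, a scaffold that is also a feedback target of the pathway, had group means from 5.66 to 5.85. Its change was 0.08 (95% interval −0.10 to 0.27) between recombined and unrecombined Hex and 0.07 (−0.07 to 0.21) for 4-OHT in recombined cells, and neither passed. Its level lies below the array median. Ctnnb1 had group means from 10.79 to 11.12. Array 2 read 9.86 where the other unrecombined Hex arrays read 11.19, 10.99 and 11.10, and the change with recombination of Hex was 0.11 with it and −0.19 without it (adjusted p = 0.756 and 0.263). Apc, the scaffold lost in many colon tumours, had the narrowest range of all 55, 0.12. Csnk1d on 97263_s_at read 9.82, 9.29, 9.85 and 9.57 in unrecombined Hex and 9.93, 10.65, 9.71 and 10.51 in recombined Hex. The groups overlapped, and the change was 0.57 (SE 0.25, adjusted p = 0.238).

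The cytoplasmic kinases and Dvl2 followed RNA quality most. Over the 39 arrays without array 2, with the groups in the model, 23 of 55 probe sets had a slope on the β-actin log2 ratio that passed (9 negative, 14 positive), where 58.7% of all probe sets did. The steepest were those of Csnk1d (−0.77 on 97263_s_at and −0.72 on 97262_at), Csnk1e (−0.63), Dvl2 on 100495_at (−0.60) and Fzd2 (−0.57). The Csnk1d probe set 162001_f_at (0.18) and the Dvl2 probe set 161408_r_at (0.16) had slopes of the other sign. Probe sets of 1 gene thus moved in opposite ways.

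**Figure D4:**
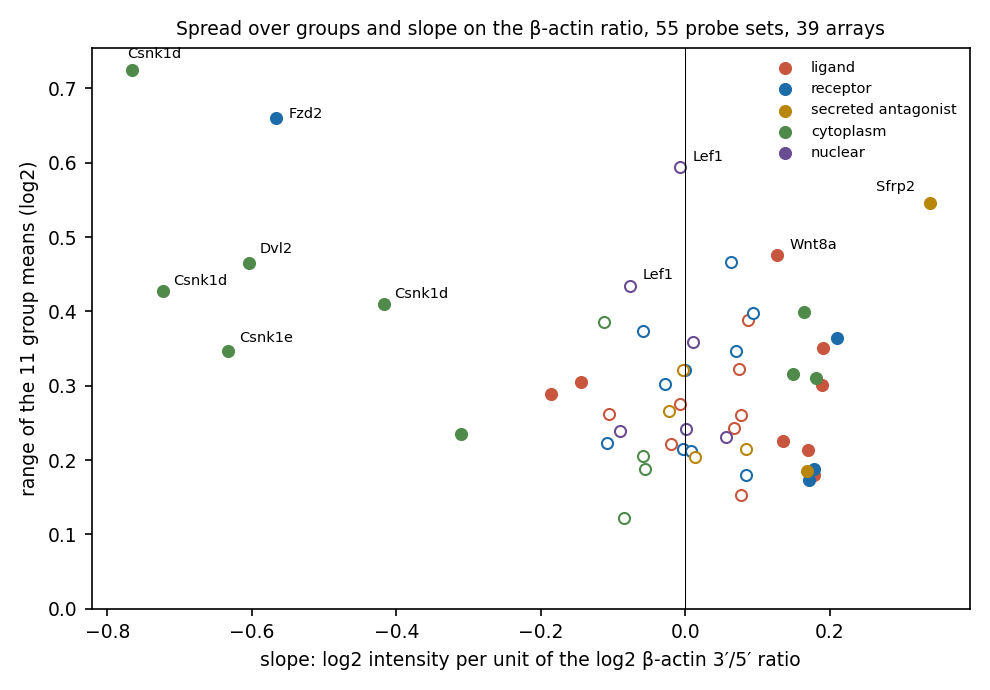
Range of the 11 group means (vertical axis, log2) against the slope of each probe set on the log2 β-actin 3′/5′ ratio (horizontal axis), for the 55 probe sets over 39 arrays. Filled points have a slope with an adjusted p under 0.05. The Lef1 points, with slopes of −0.01 and −0.08, stand near 0, while Csnk1d and Fzd2, with wide ranges, lie at −0.77 and −0.57.

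Other genes of the pathway were described from lists of regulators and targets. These lists, like the marker lists, were chosen with earlier results of these data known. Their counts beside the shares of all probe sets are therefore descriptions and not tests. With recombination of Hex 2.59% of all probe sets rose and 0.781% fell, or 2.35% and 3.91% without array 2. Among 17 probe sets of 14 secreted and membrane regulators, 3 rose and 0 fell, and 2 and 0 without array 2: Wls, which escorts Wnt proteins to the surface (0.82, adjusted p = 0.0016, and 0.53 without array 2, 0.0013), the heparan sulfate proteoglycan Gpc3 (0.48, 0.0247, and 0.66, 9.91e-05) and the Lrp6 antagonist Dkk1 (0.25, 0.0454, and 0.19, 0.108). Of 44 cytoplasmic probe sets 2 rose and 2 fell (0 and 3 without array 2), of 23 of nuclear partners 0 and 0 (0 and 1), and of 39 of transcriptional targets 2 rose and 1 fell (2 and 3). The targets called with all arrays were Gbx2, a homeobox gene, which fell by 1.14 (adjusted p = 9.2e-04, and −1.52 without array 2), and Tfap2c and Klf2, which rose by 0.60 and 0.53. Against wild type, unrecombined Hex was higher in Gbx2 by 0.88 (adjusted p = 0.0104) and lower in Tfap2c (−0.75, 1.57e-04) and in Klf2 (−0.38, 0.0229, lost without array 2 at 0.130). Recombined Hex differed from wild type in 0 of the 39 (0.266% of all probe sets), and in 1 without array 2 (1.37%). With 4-OHT in recombined HexERTVP2 cells 0 probe sets of the 4 lists passed with all arrays (0.0322% of all). Without array 2 of the Hex group, which is no part of this comparison, 3 targets fell (0.0966% of all). Among them were Klf2 (−0.37, adjusted p = 0.0676 with all arrays) and Tfap2c (−0.36, 0.502 with all arrays). In the same fit 1 nuclear partner, Tle3, rose (0.34, 0.579 with all arrays), where 0.0483% of all did. Of the 39 target probe sets 2 rose and 0 fell with recombination of HexERTVP2 without 4-OHT, averaged over the clones. The shares of all were 0.386% and 0.0805%, and without array 2 of the Hex group 4 rose and 0 fell (2.64% and 0.741%). Those called with all arrays were a probe set of Bmp4 (0.86, adjusted p = 0.0201) and Ccn4, a secreted matricellular protein (0.32, 0.0079). The effect on Ccn4 was lower in clone 2 than in clone 1 by 0.76 (adjusted p = 0.0012), so its mean does not describe each clone.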

How the data were processed

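RNA of 44 samples was hybridised to Affymetrix arrays. The values the authors deposited are linear intensities per probe set, made with RMA per the submitters' processing notes. The genome build and further steps are not given in the sources used here. The log2 of each intensity was taken with no further normalization. The 66 control probe sets were left out and 12422 were tested. Symbols are those of the platform annotation: 10833 probe sets had 1 symbol, 396 several and 1193 none. limma 3.58.1 (R 4.3.3, lmFit and eBayes) was fitted to 40 arrays with 1 mean for each of 11 groups (29 residual degrees of freedom), with Benjamini-Hochberg adjustment over 12422 probe sets. Depth does not apply to arrays, and their number limits the precision. The model was tested on simulated data. The members and gene lists were chosen with earlier results of these data known, and some lists came from that earlier work. By the rule for named genes, any member may be named, those past the threshold get array values, other members are given by role with their largest changes, and up to 4 genes of each other list that pass are named. Axin2, Ctnnb1 and Apc, and members that passed only in another fit, were singled out with their values seen. Alternatives were other scalings, filters, array weights, covariates, a replicate block and left-out arrays. The split by clone and the slope on the β-actin ratio were chosen after the data were seen. The replicate numbers were not taken to pair the samples. Figures were drawn with matplotlib 3.10.9 (Python 3.11.15).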

Additional observations from a re-analysis of the deposited data

Results flagged for a closer look

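In 6 cases a gene of the groups described had 1 array far from the others of its group, by a test of the gap against the range that chance meets in about 1 in 20 groups. Array 2 of unrecombined Hex was apart in 3 of them: it was the highest for Lrp6 on 93877_at, at 8.51, and the lowest for Sfrp2, at 7.19, and for Tcf7l1 on 160780_at, at 7.83. In recombined clone 1 without 4-OHT, array 3 was the lowest for Lef1 on 103628_at, at 8.69. In recombined clone 1 with 4-OHT, array 3 was the lowest for Tcf7l1 on 160780_at, at 8.91, and array 4 the highest for Fzd8, at 7.25. Over the 55 probe sets, 24 of 330 such groups (7.27%) had an array apart, 13 of them through array 2 of unrecombined Hex. Groups of 3 arrays, which are all those of clone 2 and unrecombined clone 1 with 4-OHT, were not put to this test.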

How the results depend on the processing

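All counts here are of the 55 probe sets past an adjusted p of 0.05. Where no total over all probe sets is given, a count cannot tell a change in these 55 from one over all. For the test over the 11 groups they were 16 with array weights, 7 with the β-actin covariate and 12 with that covariate and without array 2 of unrecombined Hex. Recombined against unrecombined Hex gave 2 with median centring, quantile normalization, the filter on dim probe sets or the β-actin covariate, 4 with array weights, 4 with the covariate and without array 2, and 0 with only its own arrays in the fit. Recombined Hex against wild type gave 2 with array weights. Unrecombined Hex against wild type gave 1 with quantile normalization or with a trended robust fit, 6 with array weights, 4 with the covariate and 0 with only its own arrays. Clone 2 against clone 1 gave 1 with quantile normalization, 2 with array weights, 1 with the covariate and 3 with it and without array 2. Unrecombined HexERTVP2 against wild type gave 0 with quantile normalization, 6 with array weights, 4 with the covariate and 11 with it and without array 2. The difference of recombination between clones gave 1 with array weights. The cause was not tested. No direction of a called value reversed.

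With 1 array left out in turn, the counts ran from 2 to 5 over the 11 groups, 0 to 2 for recombined against unrecombined Hex, 0 to 6 for unrecombined Hex against wild type and 0 to 7 for unrecombined HexERTVP2 against wild type, and stayed at 0 for recombined Hex against wild type. Over all 12422 probe sets the counts ran, in the same order, from 542 to 1599, 233 to 778, 378 to 1595, 85 to 1010 and 26 to 170. For HexERTVP2 the 7 came without array 2 of unrecombined Hex, and 0 came without wild-type array 1, 2 or 4 or clone 2 array 3. For unrecombined Hex the 6 came without its array 1 or 3. By clone, unrecombined clone 2 against wild type ranged from 0 to 19 and recombination of clone 1 from 1 to 3.

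Same-numbered arrays correlated at 0.098 on average (163 pairs, −0.70 to 0.85), against −0.028 for others, so the numbers were not taken to pair samples. With the replicate block, recombined against unrecombined Hex gave 2, adding Lef1 on 103629_g_at (adjusted p = 0.0446), the 11 groups 3, and the HexERTVP2 comparison with wild type 1. Values below the array median, as for most ligands, limit what can be seen.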

Other observations

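On the 4 arrays whose titles contradict themselves, given no group here, Lef1 read 7.98, 7.50, 7.78 and 7.50 on 103629_g_at and 9.01, 9.08, 8.81 and 8.87 on 103628_at. Fzd2 read 7.27, 7.70, 7.35 and 7.58. Lrp6 on 93877_at read 7.98, 7.99, 8.03 and 8.22.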
